A study of Mus musculus with 4 samples.

Results

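C1q macrophages without Arg1 were droplet barcodes of mouse tumours that carried RNA of the complement component C1q and of general myeloid genes, but almost no RNA of arginase 1. A barcode belonged to them if it had at least 1500 UMIs (unique molecular identifiers, each counting 1 captured RNA molecule), at most 20% mitochondrial UMIs and less than 0.3% of its UMIs in the pigment cell genes Dct, Pmel, Mlana and Tyrp1. It also needed at least 5 UMIs summed over C1qa, C1qb and C1qc, at least 5 over Lyz2, Tyrobp and Fcer1g, and at most 2 of Arg1. The members were thus chosen by their measured RNA of these genes, and numbered 211 of 9582 barcodes that passed the UMI and mitochondrial limits. The 648 remaining immune barcodes, with at least 1 UMI of Ptprc (the pan-leukocyte antigen CD45), were a mixture of T cells, B cells, other myeloid cells and C1q macrophages with 3 or more Arg1 UMIs. The latter, called Arg1-positive below, numbered 67 with or without a Ptprc UMI. Immune barcodes are the members and the remaining immune barcodes together.

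The study profiled tumours of C57Bl6 mice aged 6 to 8 weeks, and its title names enzyme nanocapsules as a means of strengthening T cell immunity in cancer immunotherapy. There were 2 Control libraries and 2 Nanocapsule treated libraries, all 4 described as tumour. Their cell type label reads cancer cells, which the macrophage markers of the members go against, and no sort is named. The labels give neither the tumour line, the enzymes, the dose, nor the animals behind each library. Replicate error here is thus the spread among 4 libraries, which may be technical in part, and a two-sided exact permutation test over 2 against 2 libraries cannot give a p below 0.333.

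C1q is the recognition molecule of the classical complement pathway, and in tissues most of it is made by macrophages. C1q-rich macrophages of tumours are known for clearing dying cells, for handling lipids through ApoE and TREM2, and for presenting peptides on MHC class II. Arginase 1, which breaks down arginine, marks another macrophage state that is often found in oxygen-poor tumour regions.

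The members carried macrophage RNA in every library. The 12 macrophage marker genes, 4 of them used by the rule, summed to 25933, 25213, 29168 and 21408 CPM, the UMIs of a gene scaled to a common total per library. Here and below, 4 values in a row stand for the libraries Control 1 and Control 2 and then for Nanocapsule 1 and Nanocapsule 2. In the remaining immune barcodes they summed to 8132, 4933, 8006 and 5768 CPM. Markers of most other cells were low: T cell markers summed to 1.67 to 22.3 CPM, natural killer cell markers to 0 to 4.83, fibroblast markers to 0 to 5.34 and B cell markers to 13.4 to 58.4. Neutrophil markers summed to 11.7 to 44.5 CPM, those of conventional dendritic cells to 0 to 23.4, and those of monocytes to 48.3 to 427, against 1198 to 2154 in the remaining immune barcodes. The 6 markers of plasmacytoid dendritic cells were not low as a sum, at 440, 506, 632 and 458 CPM. They summed to 1375, 1502, 640 and 589 CPM in the remaining immune barcodes. Of these markers Siglech, Ccr9 and Klk1 were at 0 in the members of all 4 libraries. The 5 markers of microglia or Langerhans cells summed to 9.65 to 27.0 CPM, with Sall1, Cd207 and Epcam at 0 in all 4 libraries. Melanocytic markers, among them genes the rule limits, summed to 188 to 345 CPM.

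Depth differed between the libraries. The deposited matrices held 98943390 to 140491491 UMIs each. The members numbered 68, 76, 20 and 47, with a median of 7742.5, 12484.5, 13221 and 20111 UMIs per barcode and totals of 578109, 1018282, 244438 and 1109238 UMIs. Nanocapsule 1 had the fewest members and the fewest member UMIs, so its levels rest on the fewest barcodes. The 5 members with the most UMIs held 19.2%, 15.9%, 41.7% and 22.7% of the member UMIs, so summed levels of Nanocapsule 1 weigh a few barcodes most. No member barcode was shared between any pair of libraries. The rule left 44 members with no Ptprc UMI (22, 14, 5 and 3) in the class, and 7 members had more than 1 UMI of genes of other lineages.

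The members near the limits of the rule were few. Of all members, 188 had no Arg1 UMI, 17 had 1 and 6 had 2, while 16 C1q macrophages had 3 to 7 Arg1 UMIs and 51 had 8 or more. C1q counts of 5 to 9 UMIs were seen in 20 members, and 26 other myeloid barcodes had 1 to 4. The median member gave 7553 to 8485 CPM of C1q in the 4 libraries.

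The promoters of antigen-presentation genes are shown because these genes were together at higher levels in the nanocapsule libraries, as described below. Each line gives the 250 bases before the RefSeq start of a gene on its own strand, in build GRCm38.p6, with the letters GATTGG and their reverse complement CCAATC in capitals. GATTGG is the inverted CCAAT box that is known as the Y box of MHC promoters. H2-Aa lies on the minus strand (chr17:34287824-34288073). H2-Eb1 (chr17:34305617-34305866), H2-DMb1 (chr17:34152941-34153190) and B2m (chr2:122147437-122147686) lie on the plus strand.
H2-Aa: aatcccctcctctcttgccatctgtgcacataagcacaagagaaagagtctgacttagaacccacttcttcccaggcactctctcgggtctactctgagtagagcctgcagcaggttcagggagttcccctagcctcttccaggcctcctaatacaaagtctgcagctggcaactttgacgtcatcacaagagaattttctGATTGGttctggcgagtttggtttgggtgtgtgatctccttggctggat
H2-Eb1: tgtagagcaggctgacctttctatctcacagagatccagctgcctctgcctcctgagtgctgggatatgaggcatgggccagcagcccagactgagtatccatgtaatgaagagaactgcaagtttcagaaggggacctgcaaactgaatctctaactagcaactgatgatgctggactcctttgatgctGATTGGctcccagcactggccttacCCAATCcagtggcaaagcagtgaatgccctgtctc
H2-DMb1: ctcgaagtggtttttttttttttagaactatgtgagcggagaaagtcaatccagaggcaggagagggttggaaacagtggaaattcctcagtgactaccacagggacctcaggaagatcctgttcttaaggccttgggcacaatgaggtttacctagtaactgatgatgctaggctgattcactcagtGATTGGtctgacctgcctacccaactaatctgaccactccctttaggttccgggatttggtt
B2m: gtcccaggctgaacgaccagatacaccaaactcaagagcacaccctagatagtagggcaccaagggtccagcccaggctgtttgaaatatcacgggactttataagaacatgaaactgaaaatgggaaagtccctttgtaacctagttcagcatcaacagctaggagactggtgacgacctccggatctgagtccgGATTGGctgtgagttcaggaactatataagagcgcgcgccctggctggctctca
The first GATTGG began 49, 60, 62 and 54 bases before the start of H2-Aa, H2-Eb1, H2-DMb1 and B2m. Searched on both strands, the motif was present in 14.6% of all 32851 promoter windows of this length. It was present for 7 of the 8 MHC class II list genes with a window and for 10 of the 15 MHC class I list genes with one. A match describes the letters and does not show binding.

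Beside C1q, the members stood out from the remaining immune barcodes by genes of resident-type and lipid-handling macrophages. Because the rule chose the members by expression, this comparison with the remaining immune barcodes is a description and carries no test. The genes highest in the members relative to the remaining immune barcodes, on the log2(CPM + 1) scale and as a mean over the 4 libraries, were the chemokine Ccl8 (4.34), the carbonyl reductase Cbr2 (4.02), the adhesion molecule Vcam1 (3.95) and the growth factor Gas6 (3.79). Gas6 bridges dying cells to the receptor Mertk, which was itself 2.33 higher. The prostaglandin D synthase Hpgds was 3.10 higher, the folate receptor Folr2 2.82, the selenium carrier Selenop 2.69, Apoe 2.45, the mannose receptor Mrc1 2.42 and the lipid receptor Trem2 2.30. Of these genes, Ccl8, Cbr2, Gas6 and Hpgds also ranked among the highest relative to the Arg1-positive C1q macrophages. Vcam1, Mertk, Folr2, Selenop, Apoe, Mrc1 and Trem2 did not. At the other end, transcripts of cytotoxic and B cells were nearly absent: Gzmb and Ly6d had no UMI in any member, Gzma and Cd79a had 0.891 and 1.67 CPM in a single library each.

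The scavenger receptors of long-lived resident macrophages were sparse in these barcodes. Timd4 had no UMI in any member. Lyve1 reached 5.02, 0, 48.3 and 5.23 CPM, and Cd163 stayed at 3.49 to 8.36 CPM. Mrc1, in contrast, stood at 527, 842, 569 and 654 CPM, and was detected in 51.5%, 52.6%, 25.0% and 46.8% of members after each was thinned to 1500 UMIs, against no T cell barcode in any library.

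Against the C1q macrophages with Arg1, the members had less RNA of Vegfa and Egln3, both known to be induced by low oxygen. Vegfa, the vascular growth factor, was at 43.5, 33.0, 145 and 41.8 CPM in the members and at 153, 338, 229 and 209 CPM in the Arg1-positive macrophages. Egln3, an oxygen sensor, had a mean log2 ratio of −1.99 in members over Arg1-positive macrophages, the membrane glycoprotein Pdpn of −2.56 and the oxidoreductase Ero1l of −1.73. The ratio was 2.20 for Cbr2, 1.89 for the neonatal Fc receptor Fcgrt, 1.84 for Ccl8, 1.58 for Gas6 and 1.54 for the class II peptide-loading chain H2-DMb1. These 2 classes differ by the Arg1 limit of the rule, so the values are a description. The C1q genes themselves were of the same order in both: C1qb was at 3284 to 4926 CPM in the members and 2144 to 2984 CPM in the Arg1-positive macrophages.

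**Figure D1:**
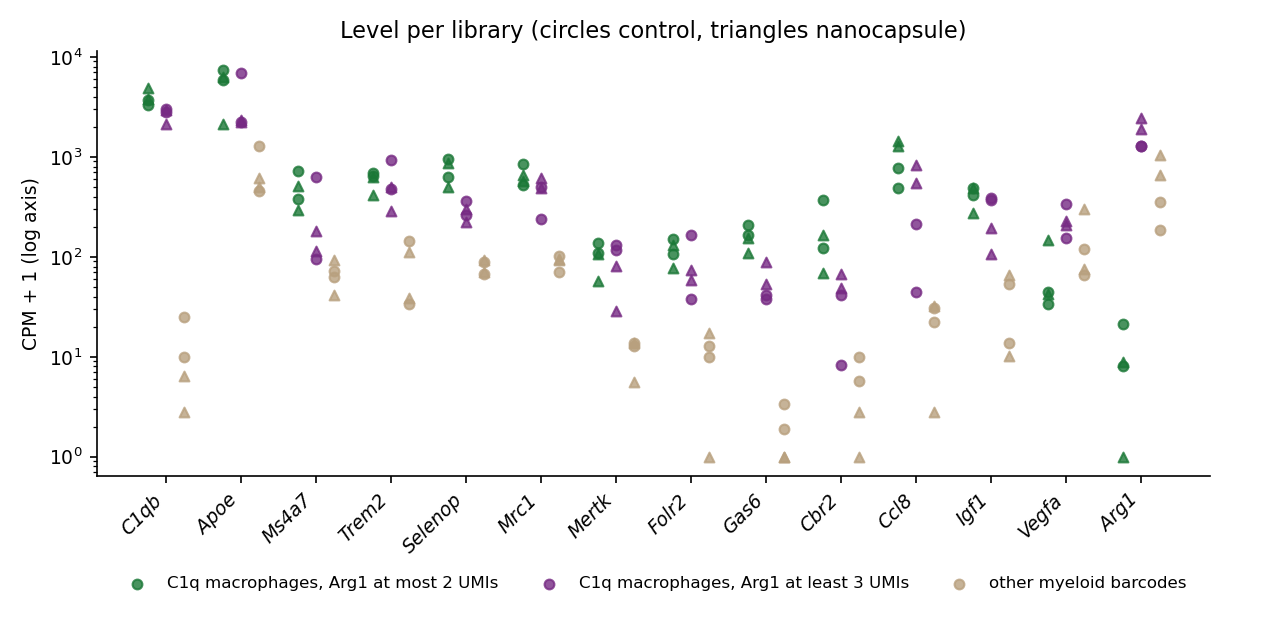
Level of 14 genes in CPM plus 1, on a log axis, in members (green), Arg1-positive C1q macrophages (purple) and other myeloid barcodes (tan), 1 point per library, circles for control and triangles for nanocapsule. Gas6 stands at 109 to 205 CPM in members, 36.5 to 87.1 in Arg1-positive macrophages and 0 to 2.38 in other myeloid barcodes, while Vegfa is higher in Arg1-positive macrophages than in members of the same library.

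The members made up a smaller share of immune barcodes in both nanocapsule libraries. They were 68 of 180 immune barcodes (37.8%, exact 95% Clopper-Pearson interval 30.7 to 45.3%) in Control 1 and 76 of 298 (25.5%, 20.7 to 30.8%) in Control 2. In Nanocapsule 1 they were 20 of 166 (12.05%, 7.52 to 18.0%) and in Nanocapsule 2 47 of 215 (21.9%, 16.5 to 27.99%). The groups did not overlap, but the intervals of Control 2 and Nanocapsule 2 did, and these intervals cover counting error only. The means were 31.6% ± 8.68 (SD, n = 2) and 17.0% ± 6.94 (SD, n = 2), and the exact permutation test gave p = 0.333, the smallest it can give. The difference in means was −14.7 percentage points. It was −8.55 without Control 1 and −30.6 among barcodes with at least 8000 UMIs. With any number of Arg1 UMIs allowed, the difference was −9.16, from shares of 43.9%, 29.9%, 27.1% and 28.4%. Control 2 was then close to both nanocapsule libraries. Members needed no Ptprc UMI, unlike the remaining immune barcodes, and 22, 14, 5 and 3 members had none. The share with Ptprc required of members too was not computed. Of all barcodes passing the UMI and mitochondrial limits, of which 2164 in 9582 were under the pigment limit, the members were 1.77%, 4.13%, 0.867% and 2.94%, and here the groups overlapped (exact permutation p = 0.667). Among C1q macrophages the share below the Arg1 limit was 86.1%, 83.5%, 43.5% and 75.8%, a description since Arg1 set the class.

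**Figure D2:**
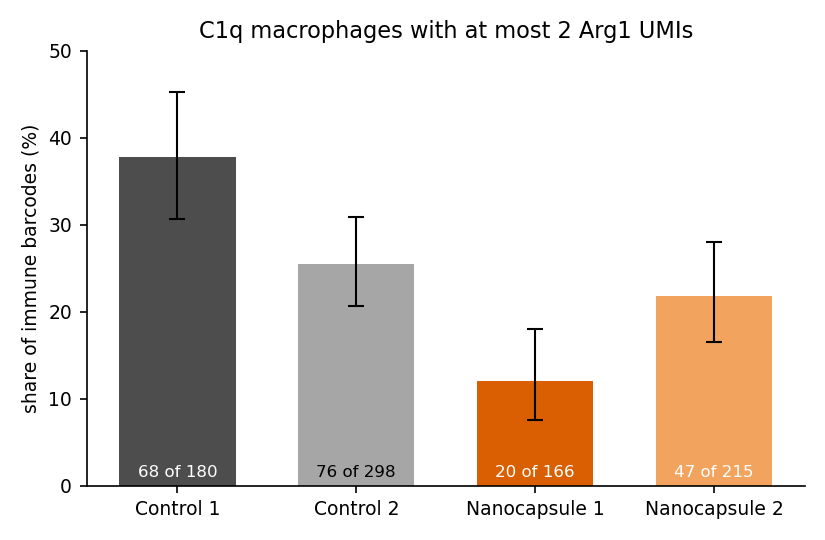
Members as a percentage of immune barcodes in each library, with exact 95% intervals and the counts written in the bars. Both control bars (37.8% and 25.5%) are above both nanocapsule bars (12.05% and 21.9%).

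No single gene passed the test for a treatment difference in the members. Summed over the members of each library, 7389 genes were tested with edgeR's quasi-likelihood test, and at a Benjamini-Hochberg adjusted p under 0.05 none was called (0% of those tested, smallest adjusted p = 0.961), while the DESeq2 Wald test called 2, Hmox1 (adjusted p = 0.0156) and AW112010 (adjusted p = 0.00103). At an unadjusted p under 0.05, edgeR had 133 genes higher (1.8%) and 112 lower (1.52%) in the nanocapsule libraries, 3.32% in all. Both nanocapsule libraries lay above both controls for 15.9% of genes and below them for 16.7%. The median log2 difference over all tested genes was 0.01. Left with 1 library in a group, whose spread is then assumed to be that of the other group, edgeR called 154 genes without Nanocapsule 1, 334 without Nanocapsule 2, 2 without Control 1 and 0 without Control 2. The 154 and 334 genes shared 27. The differences given below are therefore values of single genes that did not pass the adjusted test, to be read against these shares.

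The 10 genes with the smallest unadjusted p, among those with at least 20 CPM in 1 group, held 6 that were higher and 4 that were lower in the nanocapsule libraries. Hcar2, the receptor for niacin and the ketone body beta-hydroxybutyrate (chr5:123863570-123865499), was at 8.36 and 5.34 CPM in the controls and at 57.9 and 49.7 CPM in the nanocapsule libraries. Its log2 difference was 2.97 ± 0.45 (SE), with an adjusted p of 0.961 in edgeR. These levels rest on 5, 6, 12 and 57 UMIs, in 4, 3, 6 and 20 members.

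Hmox1 encodes haem oxygenase 1, which degrades haem and is induced by oxidative stress (chr8:75093621-75100589). It was at 712, 368, 2635 and 1552 CPM, a log2 difference of 1.95 ± 0.40 (adjusted p = 0.961 in edgeR). Both nanocapsule libraries were above both controls. In Nanocapsule 2 few barcodes held most of this RNA, since 3 of its 47 members had 72.2% of its Hmox1 UMIs, where the top 3 members had 18.7% of its C1qb UMIs. In Nanocapsule 1 Hmox1 had a UMI in 19 of 20 members. The median member had 4.64, 2.23, 15.5 and 1.63 Hmox1 UMIs per 10000, so that the typical member was high in Nanocapsule 1 and lowest in Nanocapsule 2. With each member weighted equally the log2 difference was 0.91 ± 0.47. In barcodes of 1 to 100 UMIs, which hold free RNA, Hmox1 was at 71.5, 63.8, 211 and 209 CPM, and the part of free RNA in the member difference was not tested.

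AW112010, an interferon-inducible transcript annotated as a long noncoding RNA (chr19:11047612-11055808), was at 93.7 and 41.0 CPM in the controls and at 304 and 476 in the nanocapsule libraries (log2 difference 2.59 ± 0.43). It had a UMI in 23.5% and 15.8% of control members and in 60.0% and 68.1% of nanocapsule members, unthinned. Cd274, which encodes the checkpoint ligand PD-L1 and was chosen after its values were seen, was at 80.3, 43.6, 241 and 160.4 CPM (1.68 ± 0.38). Bst1, an ectoenzyme of NAD metabolism, was at 10.0, 16.0, 48.3 and 48.8 CPM, and Klra2, a lectin-like receptor, at 15.1, 14.3, 48.3 and 53.2 CPM. For each of these 4 genes the groups did not overlap. Klra2 belongs to a family of near-identical genes, as does H2-Q7 below, and how reads shared between copies were counted is not given in the sources used here.

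The 4 lower genes were sparse. Fcrls, an Fc-receptor-like gene of macrophages, was at 78.6, 96.2, 29.0 and 27.0 CPM (log2 difference −1.67 ± 0.34), with UMIs in 22, 34, 4 and 11 members. Wfs1, an endoplasmic reticulum membrane protein, was at 30.1, 23.2, 0 and 1.74 CPM. Ctsk, a collagen-degrading cathepsin, was at 33.5, 47.2, 9.65 and 3.49 CPM, with 95% and 79.2% of the control UMIs in 3 members. Ptgds was at 35.1, 55.2, 4.83 and 8.72 CPM, but at 971 to 1566 CPM in the barcodes of 1 to 100 UMIs, so its few UMIs in members cannot be told apart from free RNA.

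**Figure D3:**
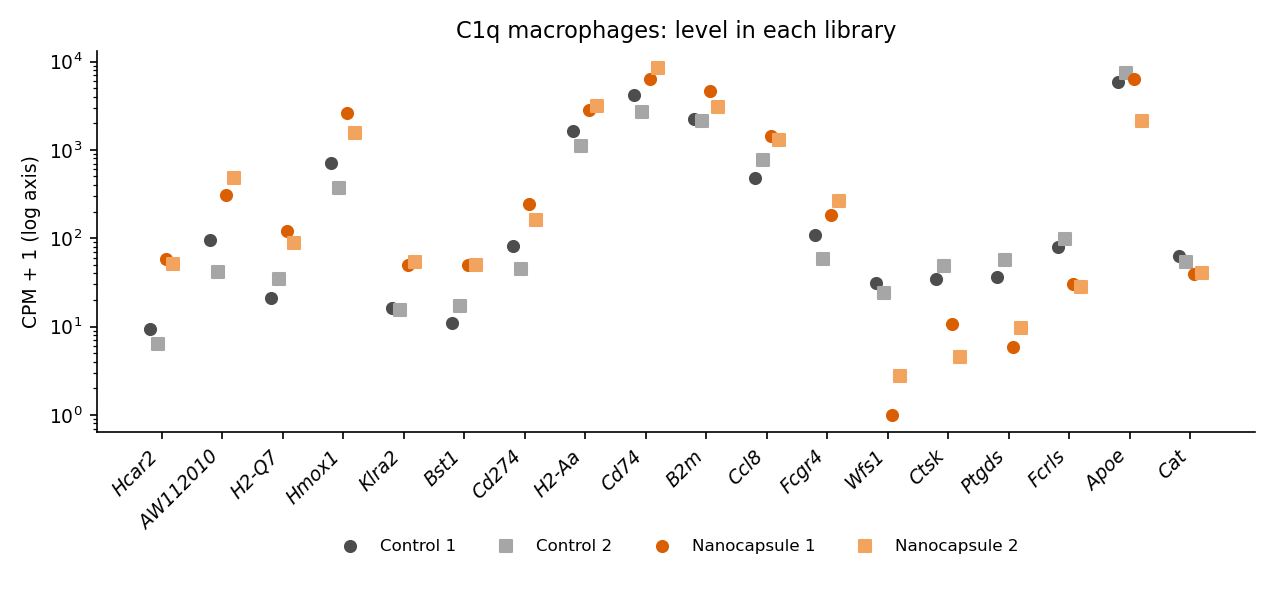
Level of 18 genes in the members of each library, in CPM plus 1 on a log axis, controls in grey and nanocapsule libraries in orange. From Hcar2 to Fcgr4 both orange points lie above both grey points and from Wfs1 to Fcrls below them; Apoe overlaps.

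The MHC class II genes, which present peptides to CD4 T cells, stood higher together. The list held 11 genes, of which 8 passed the filter on low counts. All 8 had a positive log2 difference. Of these, 6 had an unadjusted p under 0.05 (beside 1.8% of all genes), and for 6 the groups did not overlap (beside 15.9%). Their median log2 difference was 1.12, beside 0.01 over all genes tested. H2-DMb2, H2-Oa and H2-Ob were at 0 to 13.1 CPM and were not tested.

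Cd74, the invariant chain, was at 4208 and 2676 CPM in the controls and at 6292 and 8438 CPM in the nanocapsule libraries (log2 difference 1.09 ± 0.33). H2-Aa, an alpha chain, was at 1654, 1109.9, 2837 and 3152 CPM (1.11 ± 0.29). H2-Ab1, its beta chain partner, was at 1333, 1028, 2229 and 2948 CPM (1.13 ± 0.29). H2-DMb1, which helps load the peptide, was at 169, 104, 236 and 404 CPM (1.27 ± 0.36). In each of these the 2 nanocapsule libraries were above the 2 controls, and none passed the adjusted test. Ciita, the master regulator of class II transcription, was at 16.7, 13.4, 9.65 and 50.5 CPM, so that its higher mean came from Nanocapsule 2 alone.

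Class II RNA was very unevenly spread over the members. After each member was thinned to 1500 UMIs, the list took 0.979%, 1.03%, 1.15% and 2.31% of UMIs. The median member had 4, 5.5, 3.5 and 26 class II UMIs, while the member at the 90th percentile had 52.5, 41.5, 40 and 71.8. Members with 20 or more class II UMIs, a limit chosen after the values were seen, were 16 of 68, 14 of 76, 5 of 20 and 28 of 47. These are 23.5% (95% interval 14.1 to 35.4%), 18.4% (10.5 to 29.0%), 25.0% (8.66 to 49.1%) and 59.6% (44.3 to 73.6%), and 3, 6, 2 and 7 members had 15 to 24 such UMIs, near the limit. The typical member of Nanocapsule 1 was thus like that of the controls, and the higher share of class II UMIs was mainly a feature of Nanocapsule 2.

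The share of members with a UMI showed the same order. H2-Ab1 was detected in 29.4%, 34.2%, 40% and 74.5% of thinned members (50%, 59.2%, 70.0% and 91.5% unthinned). T cell barcodes, which should lack it, had it in 0%, 3.51%, 2.86% and 0% after thinning. Their median depth was 3122 to 7913 UMIs before thinning. The exact permutation test of the class II share of UMIs gave p = 0.333, the smallest it can give.

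**Figure D4:**
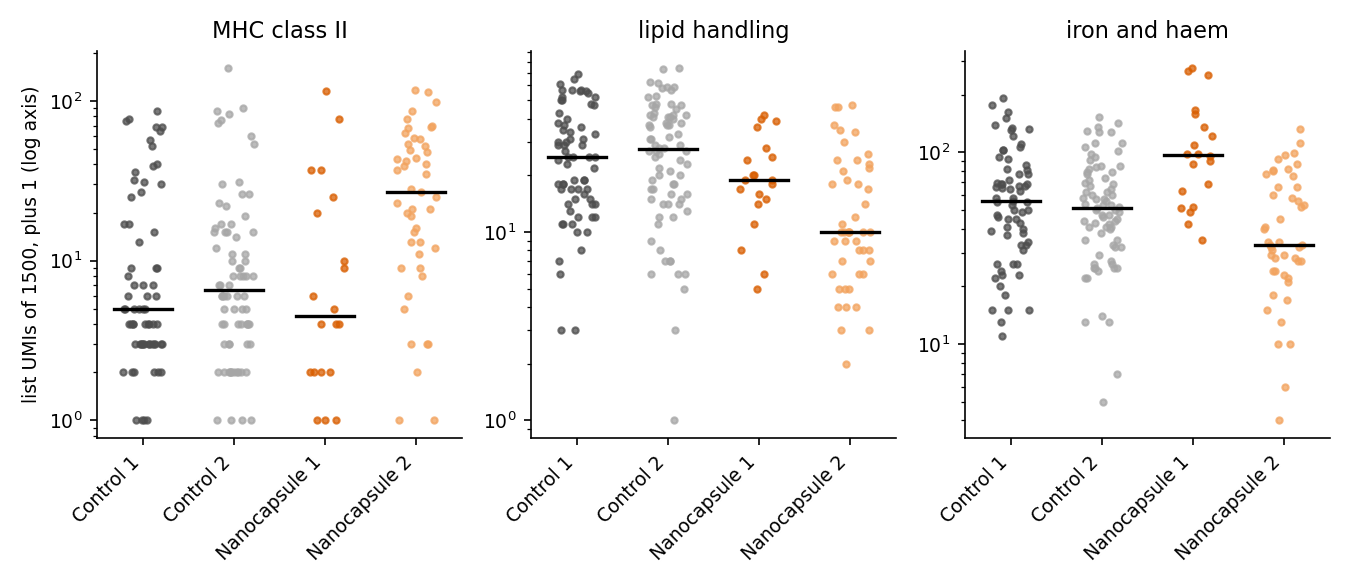
UMIs of 3 gene lists in every member after thinning to 1500 UMIs, plus 1, on log axes, with a black line at the median of each library. Class II UMIs span the whole axis in all libraries with a median of 26 in Nanocapsule 2 against 3.5 to 5.5 elsewhere; lipid handling medians are 24, 26.5, 18 and 9, and iron and haem medians 54.5, 50.5, 96 and 32.

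The genes of MHC class I presentation, which show peptides to CD8 T cells, were likewise higher. All 17 list genes were tested and had a positive difference, with a median of 0.80. Of these, 9 had an unadjusted p under 0.05 (beside 1.8% of all genes). For 13 the groups did not overlap (beside 15.9%). B2m, the light chain shared by class I molecules, was at 2256, 2108, 4598 and 3050.5 CPM (0.80 ± 0.30). H2-Q7, a nonclassical class I chain and one of the 10 genes with the smallest p, was at 20.1, 33.8, 121 and 86.3 CPM (1.82 ± 0.38). The peptide transporter Tap1 was at 40.1, 33.0, 62.7 and 121 CPM, and the immunoproteasome subunit Psmb8 at 261, 198, 386 and 559 CPM.

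Genes induced by interferon gamma differed between the 2 nanocapsule libraries. All 17 tested list genes had a positive difference, with a median of 1.16, but for only 6 did the groups not overlap (beside 15.9% of all genes). The interferon-induced GTPase gene Gbp2 stood at 63.6, 15.1, 29.0 and 263 CPM. Nanocapsule 1 lay between the controls and only Nanocapsule 2 was above them. The chemokine Cxcl9, which attracts T cells, was at 127, 8.91, 376 and 707 CPM, and 93.4% of its UMIs in Control 1 were in 3 members. Without Nanocapsule 2 the median of the list was −0.30, and without Nanocapsule 1 it was 1.76. The median of the class II list was 0.81 and 1.33 in the same fits, and that of the class I list 0.53 and 1.15. Type I interferon genes had a median of 0.17, with 11 of 17 higher and 6 lower, but a median of −0.28 without Nanocapsule 2 and −0.03 without Nanocapsule 1. Monocyte genes were also low in Nanocapsule 1 and high in Nanocapsule 2. In thinned members the monocyte list, which includes the chemokine receptor gene Ccr2, took 0.326%, 0.322%, 0.12% and 0.441% of UMIs. Its median difference was −0.03 over 11 tested genes, −2.06 without Nanocapsule 2 and 0.39 without Nanocapsule 1. Ccr2 was at 147, 109.6, 29.0 and 191 CPM. The part of monocytes in the class II and interferon gamma levels was not tested.

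All 6 Fc receptor genes had a positive difference, with no overlap for 4, beside 15.9% over all genes. The activating receptor Fcgr4 was at 109, 57.0, 183 and 259.7 CPM (1.47 ± 0.37) and Fcgr3 at 439.9, 326, 758 and 563 CPM (0.77 ± 0.29). Of 12 tested phagocytic receptor genes 9 were lower, with a median of −0.21. For 4 the groups did not overlap in that direction, beside 16.7% over all genes. The 2 lists were not tested against each other. Mertk was at 109, 136, 106 and 55.8 CPM and Stab1, a scavenger receptor, at 294, 417, 174 and 248 CPM (−0.73 ± 0.30).

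The lipid handling list took a smaller share of UMIs in thinned members of both nanocapsule libraries, but over its genes a lower level was a feature of Nanocapsule 2. Of 19 tested genes 13 had a negative difference, 2 with an unadjusted p under 0.05, and for 5 both nanocapsule libraries were below both controls, beside 16.7% over all genes. The fatty acid receptor Cd36 was at 661, 634, 285 and 376 CPM (−0.96 ± 0.26) and the phospholipid transfer protein Pltp at 184, 385, 125 and 139 CPM (−1.11 ± 0.37). Apoe was at 5921, 7382, 6307 and 2128 CPM, so that only Nanocapsule 2 was below the controls. In thinned members the list took 1.82%, 1.91%, 1.34% and 0.943% of UMIs, with no overlap between the groups (exact permutation p = 0.333, the smallest possible). Summed over the members without thinning, the list was at 17523, 16110, 18558 and 8886 CPM, so that Nanocapsule 1 was highest by this measure. The median of the list over genes was −0.35. Without Nanocapsule 2 that median was −0.06, the same as over all genes in that fit, with 9 of 19 genes higher.

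Of 12 tested genes of resident-type macrophages 10 had a negative difference, with a median of −0.33. Without Control 2 the median was −0.05 with 6 of 13 genes higher, and without Nanocapsule 2 it was −0.14, so that the lower level rests on those libraries. Ccl8 went the other way, at 482, 772, 1428 and 1281 CPM (1.10 ± 0.30), with 40.4% to 70.9% of its UMIs in 3 members of each library. The 3 C1q genes, neighbours on chromosome 4 (from chr4:136880129 to 136898803), had log2 differences of 0.31 to 0.39, given as a description because they define the class. Lyz2 was at 8339, 6291, 7383 and 7895 CPM.

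Ldha, Aldoa and Fth1 stood highest in Nanocapsule 1, while some other metabolic genes were higher in both nanocapsule libraries. All 17 tested genes of the glycolysis and lactate list, which includes Hcar2, had a positive difference, with a median of 0.62. For 7 the groups did not overlap (beside 15.9% of all genes). Ldha, lactate dehydrogenase A, was at 1254, 911, 2408 and 1143 CPM (0.70 ± 0.38), and Aldoa, an aldolase, at 1472, 872, 3267 and 1292 CPM. For both only Nanocapsule 1 was above Control 1. Without Nanocapsule 1 the median of the list was 0.13, with 15 of 18 genes higher. The ferritin heavy chain Fth1 was at 25649, 17884, 56185 and 15963 CPM. Tfrc, the transferrin receptor for iron uptake, was at 85.3, 82.8, 24.1 and 42.7 CPM (−1.18 ± 0.35), without overlap.

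Peroxide-handling genes showed no common direction, with 8 of 16 higher and 8 lower. Cat, which encodes catalase, was at 61.9, 52.6, 38.6 and 39.2 CPM (−0.54 ± 0.33). The cystine transporter Slc7a11 was at 18.4, 16.9, 38.6 and 56.7 CPM (1.52 ± 0.38) and mitochondrial superoxide dismutase Sod2 at 98.7, 123, 159 and 214 CPM (0.77 ± 0.29). Nos2, the inducible nitric oxide synthase that uses the same substrate as arginase, was at 6.69, 0, 29.0 and 18.3 CPM.

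The treatment difference of the members was then tested against that of the remaining immune barcodes. In an edgeR fit of both classes with the library as a block, 9463 genes were tested and 1 passed a Benjamini-Hochberg adjusted p of 0.05 (0.0106%): Ccl8, with a difference of −3.41 ± 0.37 on the log2 scale (adjusted p = 0.00075). Ccl8 was also the single gene of 9477 that passed in the remaining immune barcodes alone (0.0106%), where 10 of 8980 passed without the Arg1-positive macrophages (0.111%). In the remaining immune barcodes Ccl8 was at 12.4, 7.15, 214 and 173 CPM, a log2 difference of 4.44, against 1.10 in the members. The Arg1-positive macrophages numbered 11, 15, 26 and 15 and held Ccl8 at 43.8, 209.99, 541 and 820.4 CPM, while the other myeloid barcodes had 1.83 to 31.1 CPM. With these left out of the remaining barcodes, an alternative added after the data were seen, the difference was 0.0041 (adjusted p = 1.0 in edgeR). The remaining barcodes then held 1, 7, 17 and 3 Ccl8 UMIs, in 1, 1, 3 and 3 barcodes, and Ccl8 was under the filter on low counts when they were tested alone, so this value does not show equal effects. It was −2.45 without Control 2 (adjusted p = 0.248 in edgeR), where no gene passed, while 31, 56 and 35 genes passed without Control 1, Nanocapsule 1 and Nanocapsule 2.

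The class II genes differed with opposite sign in the 2 classes. Of 11 list genes 10 had a positive difference of effects, 7 with an unadjusted p under 0.05 (beside 2.41% of all genes), with a median of 1.5, and none passed the adjusted test. The median was 0.74 without Nanocapsule 2, with 8 of 11 positive, and 1.02 to 1.94 without each of the other libraries. Among the 11 genes, H2-DMb2, H2-Oa and H2-Ob were under the filter on low counts when the members were tested alone. Their differences of effects were 1.27, −3.58 and 1.93, each with an unadjusted p above 0.05. In the remaining immune barcodes H2-Aa was at 2813, 3555, 2145 and 2595 CPM, a log2 difference of −0.43 ± 0.18, against 1.11 in the members. Its difference of effects was 1.54 ± 0.26 (adjusted p = 0.0911 in edgeR). With the Arg1-positive macrophages left out of the remaining barcodes, 9 of 9256 genes passed (0.0972%), 5 of them class II genes. These were H2-Ab1 (1.57 ± 0.24), H2-Aa (1.62 ± 0.24), H2-Eb1 (1.59 ± 0.26), H2-DMb1 (1.63 ± 0.30) and Cd74 (1.48 ± 0.24), with edgeR adjusted p-values from 0.027 to 0.0382. The others were Hmox1 (1.56 ± 0.27), Bst2, Hist1h1b and Il1r2. Il1r2 (5.68 ± 0.92) was under the filter on low counts when the members were tested alone, so its value rests on low member counts. The makeup of the remaining barcodes also differed between libraries: B cell barcodes numbered 48, 44, 43 and 22 and T cell barcodes 13, 57, 35 and 43, with or without a Ptprc UMI, and the part of this in the difference was not tested.

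**Figure D5:**
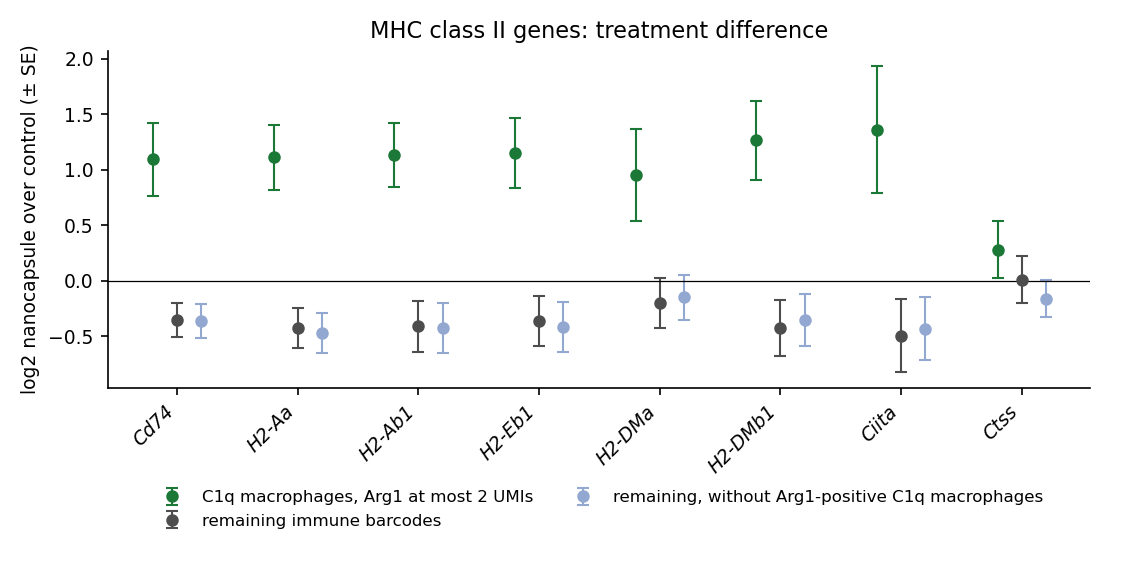
Log2 difference between nanocapsule and control libraries (points) with its standard error (bars) for the 8 class II list genes tested in the members, in 3 sets of barcodes. The members lie at 0.28 to 1.36 and 7 of their 8 genes are above 0.9, while both sets of remaining barcodes lie at −0.50 to 0.01.

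Proliferation genes showed the reverse. All 16 list genes had a negative difference of effects, 10 with an unadjusted p under 0.05 (beside 2.63% of all genes), with a median of −1.11 and none past the adjusted test. In the members 6 of 16 were higher and 10 lower, with a median of −0.10, whereas the median in the remaining barcodes was 0.90. Stmn1, a tubulin regulator of dividing cells, was at 149, 233, 212 and 210.0 CPM in the members, with overlap between the groups.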

How the data were processed

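Single-cell RNA was captured with the 10x Genomics 3' version 2 chemistry, per the labels' protocols. The deposited matrices hold the authors' raw UMI counts per gene and barcode, unfiltered, for 32285 genes. The submitters' processing notes name Cell Ranger 2.1.1 and the mm10 genome, while the file headers name version 4. UMI totals were 98943390 to 140491491 per library. Barcodes were classed by the UMI limits given above, T and B cell barcodes needed at least 2 UMIs of their marker genes and under 5 of the myeloid genes, and no doublet caller was run; members with more than 1 UMI of other lineages were left out as an alternative.

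UMI counts of a class were summed per library, filtered with filterByExpr, TMM-scaled and tested with edgeR 4.0.16 (quasi-likelihood, R 4.3.3, limma 3.58.1) at a Benjamini-Hochberg adjusted p under 0.05. DESeq2 1.42.0 was an alternative. CPM values are TMM-scaled, ± values are standard errors unless SD is written, and fold changes are edgeR's fitted log2 values. For shares of barcodes with a UMI, each barcode was thinned to 1500 UMIs. On simulated data with the fitted dispersion of the 7389 genes tested in the members, the edgeR test called 89% of 4-fold and 6% of 2-fold changes. With 100 genes changed by each fold, it also called 12 unchanged genes. The changed genes were drawn only from genes above a limit on mean CPM. Hcar2, Wfs1, Ctsk, Bst1 and Klra2 lay below that limit, so the rates do not cover genes as sparse as these. Python 3.11.15, numpy 2.4.6, scipy 1.17.1 and pandas 2.3.3 did the rest.

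The members and gene lists were chosen with earlier results of these data known. Named by rule were the 10 genes of smallest p with at least 20 CPM in 1 group, the 2 most abundant of each list, the rule's genes and the genes ranking highest or lowest against other classes. Other genes were chosen from the lists after their values were seen, as were Cd274, Cxcl9, Fcgr4 and Slc7a11. Gene positions are from GENCODE vM21 (GRCm38), to which 32158 gene IDs matched, and promoters are from RefSeq.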

Additional observations from a re-analysis of the deposited data

Results flagged for a closer look

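The nanocapsule difference of Ccl8, a chemokine made by resident-type macrophages, was not the same in the members and in the remaining immune barcodes: the interaction term of the edgeR fit was −3.41 ± 0.37 on the log2 scale (Benjamini-Hochberg adjusted p = 0.00075). In both classes both nanocapsule libraries were above both controls. The remaining barcodes started from 7 and 11 Ccl8 UMIs in the controls, and had 252 and 368 in the nanocapsule libraries. With the Arg1-positive macrophages left out, the remaining barcodes held only 1, 7, 17 and 3 Ccl8 UMIs in the 2 controls and the 2 nanocapsule libraries. The difference was then 0.0041, a value too thinly counted to show equal effects.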

How the results depend on the processing

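The member share of immune barcodes stayed lower in the nanocapsule libraries under each limit tried, none of which required Ptprc of the members. The difference moved from −14.7 percentage points to −30.6 with at least 8000 UMIs and to −9.16 with any number of Arg1 UMIs allowed. Leaving out 1 library each gave −20.8 to −8.55. Without the filter on low counts edgeR called 34 genes in the members, 160 in the remaining barcodes and 69 for the difference between them, against 0, 1 and 1 with it. The DESeq2 Wald test called 2, 10 and 1. Leaving out 1 library each gave 0 to 334, 0 to 247 and 0 to 56 calls. With Arg1-positive macrophages left out of the remaining barcodes, a choice added after seeing the data, 10 genes were called there and 9 for the difference, and the Ccl8 difference was 0.0041, from 1 to 17 Ccl8 UMIs per library. The replicate numbers are not said to pair libraries. Over genes, the deviations of same-numbered libraries from their group means had r = 0.153 in the members and 0.125 in the remaining barcodes. With 2 libraries in each group both pairs give the same r, so each value is a single comparison. With a replicate block, 0, 138 and 0 genes were called, and the Ccl8 difference was −3.37 (edgeR adjusted p = 0.0539).

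Of 70 named genes, 34 had a direction in the members, by an unadjusted edgeR p under 0.05 or by groups that did not overlap. Over all genes tested, the groups did not overlap for 15.9% (higher) and 16.7% (lower), and 3.32% had such a p. Some of the 70 were named for their small p or after their values were seen, so the count is not a result about them. With any number of Arg1 UMIs allowed, the log2 difference was 0.19 for Ptgds, 0.15 for Pf4, −0.027 for C1qa, 1.29 for Dct and 0.40 for Pmel, each opposite in sign to the value by the rule, and C1qb was at −0.024 with members weighted equally. The cause was not tested. With 20 members and 244438 UMIs, Nanocapsule 1 limits every level most, and 1 UMI there is worth 4.83 CPM.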
